A study of Mus musculus with 18 samples.

Results

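Scavenger receptors take modified lipoproteins, fatty acids and cell debris into macrophages, and cholesterol exporters carry the sterol out again. The genes described here are 10 that were listed by name for these roles: the uptake receptors Cd36, Msr1 and Marco, the lipoprotein receptor Scarb1, the exporters Abca1 and Abcg1, the liver X receptors (LXR) Nr1h2 and Nr1h3, the ubiquitin ligase Mylip and the lipase Lpl. Of these, 9 were rows of the count table of 11243 genes. Marco was not in it and was not analysed here. The cells were RAW264.7, a transformed mouse macrophage line, and each group held 3 libraries from 3 independent experiments. Control cells had vehicle (DMSO), LPS cells had 500 ng/mL bacterial lipopolysaccharide for 6 h, and LPS+torin1 cells had torin1, which inhibits the kinase mTOR, at 100 nM from 15 min before the same LPS treatment. Total mRNA and mRNA from heavy polysomes were sequenced from each of the 9 lysates, giving 18 libraries. For efficiently translated mRNAs the paper describes a threshold of 3 or more ribosomes. It states that shifts not crossing this threshold may be harder to detect. Total and polysome libraries of the same treatment and experiment number were matched.

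LXR are nuclear receptors that bind oxysterols as heterodimers with retinoid X receptors and switch on genes for sterol export, among them Abca1 and Abcg1. They also switch on Mylip, a ubiquitin ligase that limits lipoprotein uptake. In macrophages that have ingested lipid, the balance of uptake and export governs whether cholesterol esters accumulate, and this balance is known to shift when toll-like receptors are engaged.

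Libraries held between 27800983 and 47725557 counts. The listed genes in the table together took from 0.278% to 0.554% of the counts of a library. Levels are given as CPM, counts scaled to library size, after TMM scaling over the 18 libraries, and values listed for a group follow experiments 1, 2 and 3. All 12 macrophage markers were measured, with a summed level from 11545 to 22796 CPM. With LPS, 8 of them rose in total mRNA and 1 fell, Csf1r, the receptor for macrophage colony-stimulating factor, at −0.93 (adjusted p = 9.36e-05) on the log2 scale. Of 22 markers of other cell types only 4 were rows of the table (S100a8, Zbtb46, Pdgfrb and Cdh5), at a summed 1.70 to 2.84 CPM in control and 3.76 to 7.58 CPM in LPS total mRNA. Of these, S100a8 at 4.24 (adjusted p = 2.04e-04) and Cdh5 at 0.87 (adjusted p = 0.218) rose with LPS in total mRNA, and Zbtb46 at −1.07 (adjusted p = 0.0611) fell. Their part in the results was not tested. In these bulk lysates, fewer cells expressing a gene and less RNA per cell cannot be told apart. All 9 measured LPS response genes, among them Il1b and Tnf, rose with LPS in both RNA types, and 7 of them fell with torin1 in total mRNA.

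After LPS, the scavenger receptors Cd36 and Msr1, the exporter Abca1 and the receptor Nr1h3 rose in total mRNA, whereas Scarb1, Abcg1, Mylip and Lpl fell. Abca1 showed the largest change of the 9, a 6.45-fold rise. These 8 calls, 4 in each direction, were made with edgeR's quasi-likelihood test at a false discovery rate (FDR) of 0.25 over all genes. At that threshold 66.5% of all genes were called, 32.2% higher and 34.3% lower. This split depends on the normalization: TMM gave 3616 higher and 3855 lower, and upper-quartile normalization gave 2698 and 4943. In polysome-associated mRNA 7 of 9 were called, with Cd36, Msr1 and Abca1 higher and Scarb1, Abcg1, Mylip and Lpl lower, where 55.1% of all genes were called, 26.4% higher and 28.7% lower. The control and LPS libraries did not overlap for 7 of 9 genes in total mRNA (53.9% of all genes) and for 5 of 9 in polysome-associated mRNA (46.2%).

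Torin1 given ahead of LPS was followed by lower Cd36, Scarb1, Mylip and Lpl and by higher Abcg1, Nr1h2 and Nr1h3 than LPS alone in total mRNA, 7 of 9 genes, where 53.7% of all genes were called, 27.3% higher and 26.4% lower. In polysome-associated mRNA 6 of 9 were called, Abcg1 and Nr1h3 higher and Cd36, Scarb1, Mylip and Lpl lower, against 38.4% of all genes, 20.3% higher and 18.2% lower. That polysome count fell to 3 without experiment 1 and to 1 without experiment 3. Over all genes, the calls went from 4322 to 1782 and 1187 in the same settings. Libraries of the LPS and LPS+torin1 groups did not overlap for 6 of 9 genes in total mRNA (42% of all genes) and for 4 of 9 in polysome-associated mRNA (32.6%). This comparison shares its LPS libraries with the one against control.

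LPS+torin1 cells were also set against control cells. In total mRNA 8 of 9 genes were called, Msr1, Abca1, Abcg1, Nr1h2 and Nr1h3 higher and Scarb1, Mylip and Lpl lower, where 66.7% of all genes were called, 33.1% higher and 33.6% lower. In polysome-associated mRNA 6 of 9 were called, Msr1, Abca1 and Nr1h3 higher and Scarb1, Mylip and Lpl lower, where 58.2% were called, 28.5% higher and 29.7% lower. The groups did not overlap for 8 of 9 genes in total mRNA (61.2% of all genes) and for 6 of 9 in polysome-associated mRNA (46.9%).

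**Figure D1:**
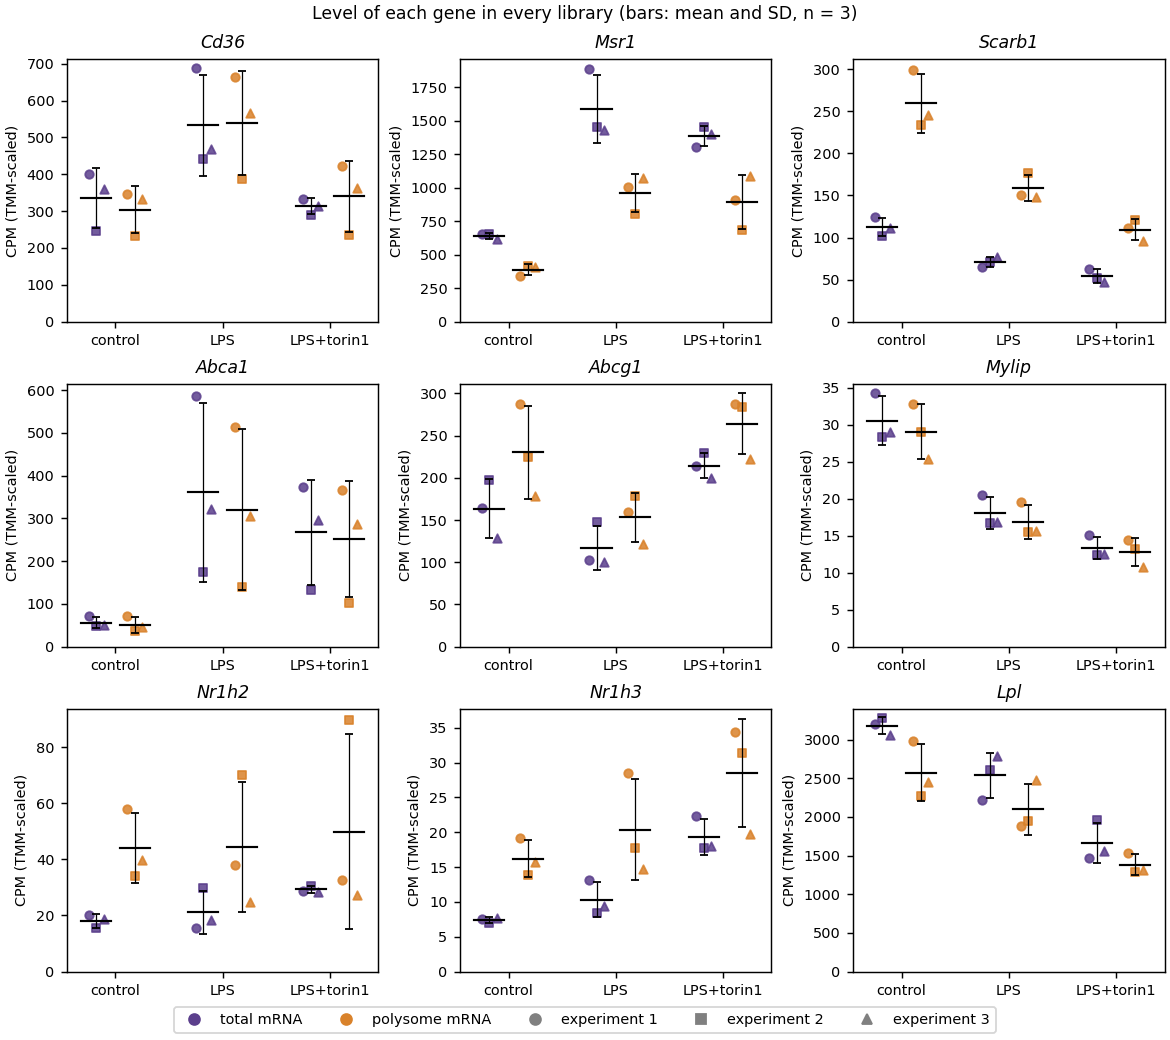
CPM after TMM scaling (y axis, from 0) of the 9 measured genes in control, LPS and LPS+torin1 cells (x axis), with total mRNA in purple, polysome-associated mRNA in orange, 1 marker shape per experiment, and bars for the mean and SD of 3 libraries. Abca1 rose with LPS in every experiment and was lowest in experiment 2, and Mylip and Scarb1 stepped down from control to LPS to LPS+torin1.

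Cd36, a class B scavenger receptor for oxidized LDL and long-chain fatty acids (chr5:17781690-17888801, minus strand, GRCm38), was higher with LPS, and with LPS and torin1 its libraries overlapped those of control cells. In total mRNA it stood at 401, 246 and 359 CPM in the control libraries, 689.6, 441 and 468 CPM after LPS and 334, 291 and 315 CPM after LPS and torin1. In polysome-associated mRNA it stood at 348, 232 and 333 CPM in the control libraries, 665, 387 and 566 CPM after LPS and 422, 235 and 362 CPM after LPS and torin1. Every LPS library lay above the control libraries of its RNA type. The log2 fold change with LPS was 0.67 (SE 0.20, adjusted p = 0.0215) in total mRNA and 0.82 (SE 0.26, adjusted p = 0.0328) in polysome-associated mRNA. With torin1 added it fell, with log2 fold changes of −0.77 (SE 0.20, adjusted p = 0.0186) in total mRNA and −0.64 (SE 0.26, adjusted p = 0.124) in polysome-associated mRNA, the latter being −0.65 (adjusted p = 0.336) without experiment 1 and −0.65 (adjusted p = 0.457) without experiment 3. LPS+torin1 cells stood at −0.099 against control cells (adjusted p = 0.722) in total and 0.18 (adjusted p = 0.624) in polysome-associated mRNA. Neither difference was called, and the one in total mRNA was 0.012 (adjusted p = 0.965) without experiment 1.

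Msr1, the class A scavenger receptor for acetylated and oxidized LDL (chr8:39581685-39642673, minus strand), more than doubled with LPS and stayed high with torin1. Total mRNA held 654, 654 and 614 CPM in the control libraries, 1884, 1456 and 1429.6 CPM after LPS and 1308, 1453 and 1403 CPM after LPS and torin1. Polysome-associated mRNA held 339, 417 and 406 CPM in the control libraries, 1006, 804 and 1076 CPM after LPS and 911, 685 and 1085 CPM after LPS and torin1. No control library reached any library of the treated groups. The change with LPS was 1.31 (SE 0.13, adjusted p = 2.12e-05) in total mRNA, a 2.48-fold rise, and 1.31 (SE 0.19, adjusted p = 5.39e-04) in polysome-associated mRNA. Between LPS and LPS+torin1 the difference was −0.20 (SE 0.12, adjusted p = 0.261) in total mRNA, which passed with the replicate block, at −0.19 (adjusted p = 0.218), with DESeq2, at −0.22 (adjusted p = 0.203), and without experiment 2, at −0.29 (adjusted p = 0.237). It was −0.083 (SE 0.19, adjusted p = 0.806) in polysome-associated mRNA. Nearly all of the total mRNA difference came from experiment 1, where the level was 0.694 of that with LPS alone, against 0.998 and 0.981 in the other two. Msr1 against control in LPS+torin1 cells was 1.11 (SE 0.12, adjusted p = 5.24e-05) in total and 1.23 (SE 0.19, adjusted p = 7.19e-04) in polysome-associated mRNA.

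Scarb1, the class B receptor that exchanges cholesterol esters with HDL (chr5:125277087-125341094, minus strand), moved opposite to the other class B receptor, Cd36, under LPS. Its total mRNA was 123.996, 102 and 111.8 CPM in the control libraries, 64.6, 70.5 and 77.1 CPM after LPS and 63.0, 52.2 and 46.6 CPM after LPS and torin1. Its polysome-associated mRNA was 299, 234 and 246 CPM in the control libraries, 151, 177 and 148 CPM after LPS and 111.1, 120.5 and 96.1 CPM after LPS and torin1. The 3 groups formed descending steps with no overlap in either RNA type. With LPS it fell, with log2 fold changes of −0.67 (SE 0.13, adjusted p = 0.00188) in total and −0.71 (SE 0.16, adjusted p = 0.00654) in polysome-associated mRNA. Torin1 was followed by a further fall, with −0.39 (SE 0.13, adjusted p = 0.0455) and −0.51 (SE 0.16, adjusted p = 0.0588) in the same order. Without experiment 3 these became −0.23 (adjusted p = 0.396) and −0.46 (adjusted p = 0.396). LPS+torin1 cells held 2.09-fold less Scarb1 in total mRNA than control cells and 2.34-fold less in polysome-associated mRNA, with log2 fold changes of −1.06 (SE 0.13, adjusted p = 1.01e-04) and −1.22 (SE 0.16, adjusted p = 2.57e-04). Per kilobase, the Cd36 to Scarb1 ratio in total mRNA went from 7.66, 5.72 and 7.60 in control cells to 25.3, 14.8 and 14.4 with LPS and 12.6, 13.2 and 16.0 with LPS and torin1.

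Abca1 and Abcg1 encode ATP-binding cassette exporters. ABCA1 passes cholesterol and phospholipid to lipid-poor apolipoprotein A-I, and ABCG1 passes cholesterol to HDL particles. Abca1 (chr4:53030787-53159895, minus strand) and Mylip (chr13:45389742-45412022, plus strand) are both known LXR targets, and their promoter windows are shown because they moved in opposite directions with LPS. Each window runs from 250 bases before to 50 bases after the RefSeq start site (GRCm38.p6, Abca1 chr4:53159846-53160145 on the minus strand, Mylip chr13:45389492-45389791 on the plus strand), written 5′ to 3′, with matches to the motifs searched in capitals:
Abca1: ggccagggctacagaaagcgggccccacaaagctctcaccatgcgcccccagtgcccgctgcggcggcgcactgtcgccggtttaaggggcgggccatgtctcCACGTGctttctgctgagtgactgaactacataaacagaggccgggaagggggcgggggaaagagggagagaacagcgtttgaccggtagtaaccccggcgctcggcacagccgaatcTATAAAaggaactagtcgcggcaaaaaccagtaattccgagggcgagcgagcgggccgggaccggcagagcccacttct
Mylip: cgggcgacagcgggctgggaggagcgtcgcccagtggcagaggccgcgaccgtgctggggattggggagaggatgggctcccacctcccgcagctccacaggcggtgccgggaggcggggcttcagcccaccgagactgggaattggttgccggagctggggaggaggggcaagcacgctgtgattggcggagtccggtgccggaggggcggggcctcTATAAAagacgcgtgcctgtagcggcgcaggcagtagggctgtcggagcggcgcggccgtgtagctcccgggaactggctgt
In the Abca1 window the capitals mark the E-box CACGTG, whose first base is 147 bases upstream of the start site and which reads the same on both strands, and TATAAA, 29 bases upstream. In the Mylip window they mark TATAAA, 32 bases upstream. Over 32851 promoter windows of this length, 7.15% held CACGTG and 13.6% held TATAAA on either strand. The TATAAA motif was added to the search after the sequences had been seen. Only exact matches were searched for, so that response elements that depart from these letters would be missed. Neither window held an exact match to the receptor half-site AGGTCA (16.3% of all windows), its repeat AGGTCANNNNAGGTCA (0.0152%), the NF-kB motif (1.47%), the AP-1 motif TGAGTCA (5.2%) or the sterol motif TCACCCCAC (0.551%). Among the 10 genes, 6 had a window in the RefSeq table, Cd36, Marco, Nr1h2 and Nr1h3 being the other ones, and of these only Cd36 held a match, an AGGTCA on the opposite strand 228 bases upstream. Abcg1, Scarb1, Lpl and Msr1 had no entry.

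Abca1 was the most induced of the 9 genes, and its level varied widely between experiments. Its total mRNA was 70.6, 47.7 and 49.6 CPM in the control libraries, 586, 174 and 323 CPM after LPS and 373, 133 and 297 CPM after LPS and torin1. Its polysome-associated mRNA was 71.8, 36.05 and 46.2 CPM in the control libraries, 515, 141 and 306 CPM after LPS and 367, 100.9 and 286 CPM after LPS and torin1. Every LPS library lay above every control library, with rises in total mRNA of 8.31-fold, 3.65-fold and 6.50-fold in experiments 1, 2 and 3, and the coefficient of variation was 22.7% in control and 57.9% in LPS cells. The fitted change with LPS was 2.69 (SE 0.46, adjusted p = 8.69e-04) in total and 2.64 (SE 0.53, adjusted p = 0.00347) in polysome-associated mRNA. With torin1 the level was lower than with LPS alone in all 3 experiments in both RNA types, with log2 fold changes of −0.43 (SE 0.43, adjusted p = 0.489) in total and −0.33 (SE 0.50, adjusted p = 0.705) in polysome-associated mRNA, and neither was called. Under the replicate block the total mRNA difference passed, at −0.39 (adjusted p = 0.177). LPS+torin1 cells stayed above control cells, with 2.26 (SE 0.45, adjusted p = 0.00215) in total and 2.31 (SE 0.52, adjusted p = 0.00617) in polysome-associated mRNA.

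Abcg1 (chr17:31057675-31117988, plus strand) fell with LPS and was higher with torin1 than with LPS alone. Its total mRNA was 165, 198 and 128 CPM in the control libraries, 103, 147 and 99.8 CPM after LPS and 214, 229 and 199.7 CPM after LPS and torin1. In polysome-associated mRNA it was 287, 225 and 178 CPM in the control libraries, 159, 179 and 121 CPM after LPS and 287, 283 and 222 CPM after LPS and torin1. It was lower with LPS in 3 of 3 experiments in each RNA type, although the groups overlapped because experiment 2 was highest in LPS cells and experiment 3 lowest in control cells. The change with LPS was −0.49 (SE 0.18, adjusted p = 0.05001) in total and −0.59 (SE 0.22, adjusted p = 0.0594) in polysome-associated mRNA. Without experiment 1 these were −0.39 (adjusted p = 0.265) and −0.42 (adjusted p = 0.386), no longer called. LPS+torin1 exceeded LPS with no overlap, by 0.88 (SE 0.18, adjusted p = 0.00617) in total and 0.81 (SE 0.22, adjusted p = 0.0329) in polysome-associated mRNA. Against control cells, LPS+torin1 gave 0.39 (SE 0.18, adjusted p = 0.103) in total mRNA, which was 0.29 (adjusted p = 0.314) without experiment 3, and 0.22 (SE 0.22, adjusted p = 0.450) in polysome-associated mRNA, which passed with the GC correction described for Nr1h2 at 0.33 (adjusted p = 0.158).

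Expressed per kilobase of exon, Abcg1 exceeded Abca1 in every control library and the order was turned in 4 of 6 LPS libraries. Exon lengths merge all annotated transcripts of a gene, so which gene is ahead is approximate. Changes of the ratio between libraries do not depend on the lengths. The Abca1 to Abcg1 ratio in total mRNA was 0.302, 0.170 and 0.272 in control cells, 4.003, 0.831 and 2.28 with LPS and 1.23, 0.409 and 1.05 with LPS and torin1. In polysome-associated mRNA it was 0.176, 0.113 and 0.183, then 2.28, 0.554 and 1.78, then 0.900, 0.251 and 0.907. The ratio was above its control value in all 3 experiments with LPS, and below its LPS value in all 3 with torin1. In experiment 2 Abcg1 stayed ahead throughout.

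**Figure D2:**
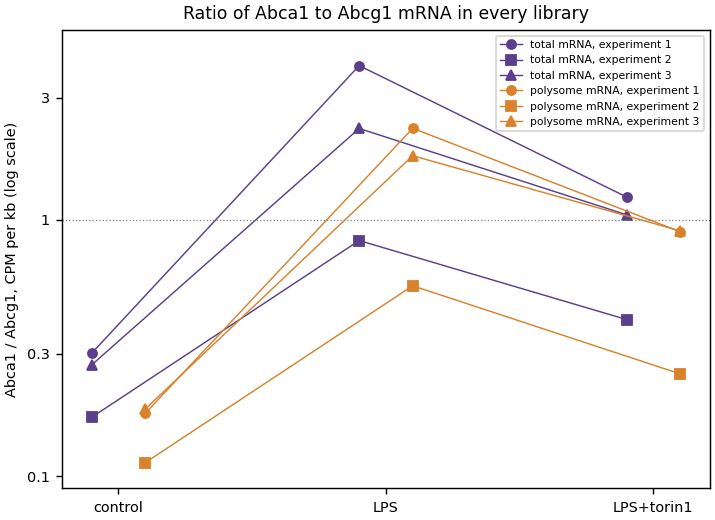
Ratio of Abca1 to Abcg1 in CPM per kilobase of exon (y axis, log scale) in control, LPS and LPS+torin1 cells (x axis), with a line for each experiment and RNA type and a dotted line at equal levels. Control libraries lie between 0.113 and 0.302, and all lines rise with LPS and come down with torin1.

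Nr1h3 encodes LXR alpha (chr2:91184061-91202834, minus strand). It was the least abundant of the 9 genes in CPM in control cells, and it rose in steps from control to LPS to LPS+torin1. Total mRNA was at 7.55, 6.93 and 7.74 CPM in the control libraries, 13.1, 8.42 and 9.46 CPM after LPS and 22.3, 17.7 and 18.05 CPM after LPS and torin1. Polysome-associated mRNA was at 19.1, 13.8 and 15.7 CPM in the control libraries, 28.5, 17.8 and 14.7 CPM after LPS and 34.4, 31.3 and 19.8 CPM after LPS and torin1. The groups did not overlap in total mRNA, whereas in polysome-associated mRNA the LPS libraries overlapped both other groups. The change with LPS was 0.48 (SE 0.18, adjusted p = 0.0487) in total mRNA, or 0.30 (adjusted p = 0.181) without experiment 1, and 0.32 (SE 0.28, adjusted p = 0.410) in polysome-associated mRNA, which was not called. With torin1 it rose further in total mRNA, by 0.91 (SE 0.18, adjusted p = 0.00451), in 3 of 3 experiments. In polysome-associated mRNA the corresponding change was 0.51 (SE 0.28, adjusted p = 0.244), just inside the threshold and lost with any experiment left out, from 0.35 (adjusted p = 0.495) without experiment 2 and 0.54 (adjusted p = 0.429) without experiment 3 to 0.68 (adjusted p = 0.268) without experiment 1. It was also lost when only the 2 treatments compared were fitted, at 0.52 (adjusted p = 0.298). Against control cells Nr1h3 was 2.61-fold higher in LPS+torin1 total mRNA and 1.79-fold higher in polysome-associated mRNA, with log2 fold changes of 1.39 (SE 0.18, adjusted p = 1.33e-04) and 0.84 (SE 0.28, adjusted p = 0.0382). A noncoding transcript, Gm13783, shares 34 bases of exon with it on the same strand, 1.35% of its exon length.

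Nr1h2 encodes LXR beta (chr7:44549616-44553951, minus strand). Its values turned on experiment 2. In total mRNA they were 20.3, 15.4 and 18.6 CPM in the control libraries, 15.4, 29.9 and 18.3 CPM after LPS and 28.7, 30.6 and 28.5 CPM after LPS and torin1. In polysome-associated mRNA they were 58.0, 34.1 and 40.0 CPM in the control libraries, 38.2, 70.03 and 24.8 CPM after LPS and 32.5, 89.9 and 27.3 CPM after LPS and torin1. With LPS it was higher in experiment 2 and lower in the other two, in both RNA types, and the fitted change was 0.23 (SE 0.22, adjusted p = 0.412) in total and 0.014 (SE 0.48, adjusted p = 0.987) in polysome-associated mRNA. Without experiment 2 the sign turned, to −0.21 (adjusted p = 0.284) and −0.65 (adjusted p = 0.0618), the latter past the threshold, and without experiment 1 the total mRNA change was 0.52 (adjusted p = 0.129). LPS+torin1 against LPS gave 0.47 (SE 0.21, adjusted p = 0.130) in total mRNA, with 0.30 (adjusted p = 0.406), 0.76 (adjusted p = 0.0142) and 0.39 (adjusted p = 0.458) when experiments 1, 2 and 3 were left out. In polysome-associated mRNA it gave 0.20 (SE 0.48, adjusted p = 0.820), or −0.052 (adjusted p = 0.905) without experiment 2. LPS+torin1 against control in total mRNA gave 0.70 (SE 0.22, adjusted p = 0.0217), higher in 3 of 3 experiments with no overlap. The same comparison in polysome-associated mRNA gave 0.21 (SE 0.48, adjusted p = 0.759), and −0.70 (adjusted p = 0.0430), that is, lower and past the threshold, without experiment 2.

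Levels of GC-rich relative to GC-poor mRNAs moved with these values between experiments. The longest Nr1h2 transcript has 60.6% GC, above 97.1% of 10859 genes with a value. For a GC trend, deviations on the log2 scale were taken from each gene's mean over the libraries of its group. These deviations compare experiments and not treatments. The trend was the median deviation of the tenth of genes with most GC less that of the tenth with least. It was 0.36 in the LPS total library of experiment 2 and −0.54 in that of experiment 1. In the polysome libraries of experiment 2 it was 0.51 with LPS and 0.71 with LPS and torin1. A correction for GC content was chosen after the data had been seen. It used deviations from each gene's mean over all libraries of its RNA type. It therefore also removed GC trends that differed between treatments, but not a GC difference between total and polysome-associated mRNA. With it, Nr1h2 in total mRNA gave 0.40 (adjusted p = 0.0227) for LPS against control and 0.30 (adjusted p = 0.0834) for LPS+torin1 against LPS. In polysome-associated mRNA it gave 0.50 (adjusted p = 0.140) for LPS+torin1 against control. Nr1h3 lies at the 86.4th percentile of GC content, and its polysome change with LPS became 0.55 (adjusted p = 0.132). Cd36 and Msr1 lie near the other end, above 2.52% and 2.50% of genes, and their LPS calls held under the correction, which brought Msr1 past the threshold for LPS+torin1 against LPS, at −0.22 (adjusted p = 0.0910) in total and −0.23 (adjusted p = 0.197) in polysome-associated mRNA. Nr1h2 also has an annotated pseudogene, Nr1h2-ps, and reads shared with it could not be told apart in the counts.

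Mylip, the ligase also called IDOL, moved alike in the 3 experiments. Its total mRNA was 34.4, 28.4 and 28.99 CPM in the control libraries, 20.6, 16.7 and 16.9 CPM after LPS and 15.1, 12.5 and 12.6 CPM after LPS and torin1. In polysome-associated mRNA it was 32.9, 28.98 and 25.4 CPM in the control libraries, 19.5, 15.5 and 15.6 CPM after LPS and 14.5, 13.2 and 10.8 CPM after LPS and torin1. The 3 groups did not overlap in either RNA type and stepped down in every experiment, with LPS to control ratios in total mRNA of 0.599, 0.589 and 0.584. The log2 fold change with LPS was −0.76 (SE 0.13, adjusted p = 0.00111) in total and −0.79 (SE 0.18, adjusted p = 0.00648) in polysome-associated mRNA. With torin1 it fell further, with −0.43 (SE 0.14, adjusted p = 0.0374) in total and −0.37 (SE 0.18, adjusted p = 0.187) in polysome-associated mRNA, the latter −0.35 (adjusted p = 0.451) without experiment 1 and −0.31 (adjusted p = 0.601) without experiment 3. LPS+torin1 against control gave −1.19 (SE 0.14, adjusted p = 6.22e-05) and −1.16 (SE 0.18, adjusted p = 6.44e-04), in the same order, and Mylip stood 2.28-fold below control in total mRNA.

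Lpl, the secreted lipase that frees fatty acids from triglyceride-rich lipoproteins (chr8:68880491-68907448, plus strand), was among the most abundant mRNAs of these cells. It ranked from 7 to 9 of all genes by counts in the control total libraries, from 21 to 33 with LPS and from 41 to 53 with LPS and torin1. Its total mRNA was 3207, 3281 and 3059 CPM in the control libraries, 2220.0, 2609 and 2785 CPM after LPS and 1468, 1963 and 1560.4 CPM after LPS and torin1. In polysome-associated mRNA it was 2987, 2277 and 2456 CPM in the control libraries, 1879, 1944 and 2478 CPM after LPS and 1536, 1290.3 and 1314 CPM after LPS and torin1. In total mRNA no LPS library reached a control library, while in polysome-associated mRNA the LPS value of experiment 3 was no lower than its control. The change with LPS was −0.33 (SE 0.14, adjusted p = 0.0735) in total mRNA and −0.30 (SE 0.17, adjusted p = 0.218) in polysome-associated mRNA. Without experiment 1 these were −0.22 (adjusted p = 0.310) and −0.096 (adjusted p = 0.836), and the polysome change was also lost without experiment 3, at −0.45 (adjusted p = 0.263), with DESeq2, at −0.27 (adjusted p = 0.283), and with only the 2 treatments fitted, at −0.29 (adjusted p = 0.270). With torin1 it fell, with −0.61 (SE 0.14, adjusted p = 0.00861) in total and −0.58 (SE 0.17, adjusted p = 0.0481) in polysome-associated mRNA, the latter −0.40 (adjusted p = 0.488) without experiment 3. LPS+torin1 cells held 1.91-fold less Lpl than control cells in total mRNA, with log2 fold changes of −0.94 (SE 0.14, adjusted p = 3.04e-04) in total and −0.88 (SE 0.17, adjusted p = 0.00275) in polysome-associated mRNA.

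**Figure D3:**
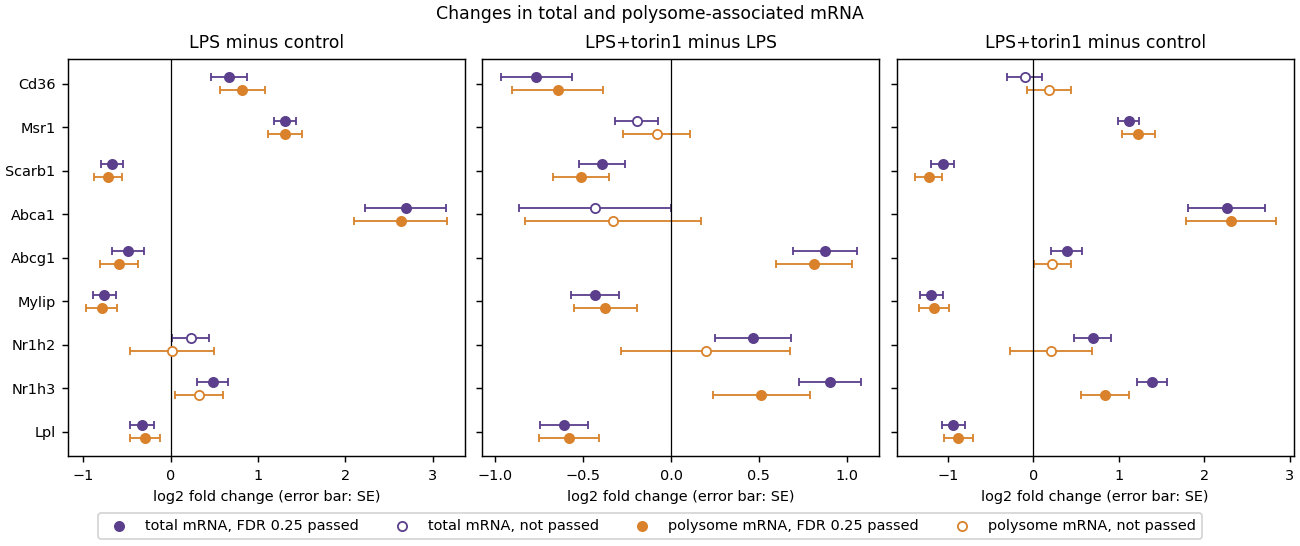
Fitted log2 fold changes with standard errors (x axis) of the 9 genes (y axis) for LPS against control, LPS+torin1 against LPS and LPS+torin1 against control, in total (purple) and polysome-associated mRNA (orange), filled where the FDR of 0.25 was passed. Genes called in both RNA types lie on the same side of 0 in both, and the widest errors are those of Abca1 and of polysome-associated Nr1h2.

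The polysome-to-total ratio of a lysate tells how a transcript is shared out relative to the average mRNA. In control cells Scarb1, Nr1h2, Nr1h3 and Abcg1 were relatively enriched on heavy polysomes and Msr1 and Lpl were depleted, 6 of 9 genes, where 69.6% of all genes were called, 36.3% higher and 33.2% lower. Scarb1 ratios were 2.41, 2.29 and 2.20 (mean ± SD 2.30 ± 0.108, n = 3) and the fitted log2 difference was 1.21 (SE 0.14, adjusted p = 3.88e-05). Nr1h2 ratios were 2.86, 2.22 and 2.15, with 1.28 (SE 0.41, adjusted p = 0.0173), and Nr1h3 ratios were 2.53, 1.99 and 2.03, with 1.13 (SE 0.25, adjusted p = 0.00188). Abcg1 differed by 0.49 (SE 0.21, adjusted p = 0.0585), and by 0.31 (adjusted p = 0.434) without experiment 1. On the other side, Msr1 ratios were 0.518, 0.637 and 0.660, with −0.73 (SE 0.17, adjusted p = 0.00228). Lpl was lower, at −0.31 (SE 0.15, adjusted p = 0.106), a call lost with the GC correction, at −0.22 (adjusted p = 0.320), without experiment 2, at −0.20 (adjusted p = 0.353), and without experiment 3, at −0.30 (adjusted p = 0.278). Abca1 gave −0.12 (SE 0.53, adjusted p = 0.861), or −0.16 (adjusted p = 0.221) with the replicate block. Cd36 (−0.14, adjusted p = 0.659) and Mylip (−0.072, adjusted p = 0.714) were not called. Of the class B receptors, the mean ratio was 0.912 ± 0.0409 for Cd36 and 2.30 ± 0.108 for Scarb1.

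**Figure D4:**
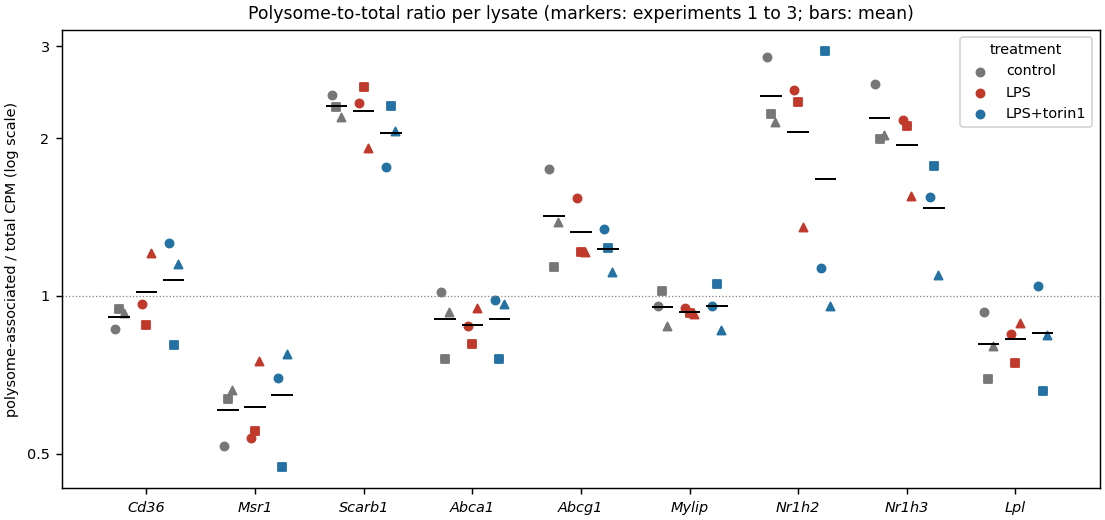
Ratio of polysome-associated to total CPM (y axis, log scale) of the 9 genes (x axis) in the lysates of control (grey), LPS (red) and LPS+torin1 cells (blue), with markers for the experiments, bars for the arithmetic mean of 3 ratios and a dotted line at 1. Scarb1 lies at or above 1.77 and Msr1 at or below 0.774 in all lysates, and the ratios of Nr1h3 lie lower with LPS and torin1 than with LPS in each experiment.

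Translation efficiency, a change on heavy polysomes beyond that in total mRNA, was assessed by a term for RNA type by treatment, with a fold of at least 1.2. None of the 9 genes was called for LPS against control or for LPS+torin1 against LPS, where 0% of all genes were called. At an unadjusted p below 0.05, edgeR found 44 of all genes for LPS and 110 for torin1, and none of the 9. This model did not use the pairing of total and polysome libraries by lysate. The replicate block did, and it gave 164 and 303 genes below 0.05. All these counts are fewer than a share of 0.05 of the 11243 genes. The test was thus conservative, and a lack of calls does not show that translation was unchanged. DESeq2 called 1 and 13 genes, an analysis of partial variance 9 and 20, and edgeR with the replicate block 0 and 25, none among the 9. The fitted differences with LPS ran from −0.22 (SE 0.57) for Nr1h2 to 0.16 (SE 0.36) for Cd36. For torin1 they ran from −0.42 (SE 0.35) for Nr1h3 to 0.099 (SE 0.36) for Cd36. Nr1h3 had the largest torin1 value: its ratio was 2.17, 2.11 and 1.55 with LPS and 1.54, 1.77 and 1.098 with LPS and torin1, lower in 3 of 3 experiments, with an unadjusted p of 0.245, or 0.0624 under the replicate block (adjusted p = 0.993). Nr1h2 ratios scattered widely with LPS and torin1, at 1.13, 2.94 and 0.957, and its torin1 difference had an unadjusted p of 0.0231 without experiment 2 (adjusted p = 0.9998). Abca1 had the largest standard error for torin1, 0.74, which was 0.15 with the replicate block, and it was not called in either fit.

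Levels of different genes were compared per kilobase of exon. The length merges all annotated exons of a gene and is not that of the transcripts expressed, so the order is approximate. Lpl led in control total mRNA at 304 ± 10.8 CPM per kb (mean ± SD, n = 3). Msr1 (101.05 ± 3.64) and Cd36 (93.5 ± 22.3) followed and lay within their spread of each other. Abcg1 (22.4 ± 4.74), Scarb1 (13.2 ± 1.298) and Mylip (9.46 ± 1.02) came next. Abca1 (5.40 ± 1.23) and Nr1h2 (5.39 ± 0.746) were equal within their spread, and Nr1h3 was lowest at 2.95 ± 0.167 CPM per kb. With LPS, Msr1 (251 ± 40.2) drew level with Lpl (242 ± 27.6), and Abca1 moved up to follow Cd36 at 34.8 ± 20.2 CPM per kb, with a spread that reached Abcg1 (16.0 ± 3.63). With LPS and torin1, Msr1 (219 ± 11.7) stood above Lpl (159 ± 25.1), Abcg1 (29.4 ± 2.02) and Abca1 (25.8 ± 11.8) overlapped, and Mylip was lowest at 4.14 ± 0.468 CPM per kb. The LXR ratio Nr1h2 to Nr1h3 in total mRNA was 2.02, 1.66 and 1.80 in control cells, 0.880, 2.66 and 1.45 with LPS and 0.965, 1.296 and 1.18 with LPS and torin1.

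Other genes known as LXR targets were counted beside Abca1, Abcg1 and Mylip, against 32.2% of all genes called higher and 34.3% lower with LPS in total mRNA, and 26.4% and 28.7% in polysome-associated mRNA. Of 14 measured, 1 rose and 8 fell with LPS in total mRNA (median log2 change −0.39, against −0.018 over all genes), and 1 rose and 9 fell in polysome-associated mRNA (median −0.41, against −0.031). The one that rose was Lpcat3, an enzyme of phospholipid remodelling, by 0.37 (adjusted p = 0.0812) in polysome-associated mRNA. The lowest log2 fold changes there were those of Arl4c, a small GTPase, at −1.43 (adjusted p = 0.00263), the desaturase Scd2, at −1.42 (adjusted p = 0.00211), and the fatty acid elongase Elovl5, at −0.88 (adjusted p = 0.00200). With torin1, 3 rose and 8 fell in total mRNA (median −0.41, against 0.0012 over all genes), and 3 rose and 6 fell in polysome-associated mRNA (median −0.34, against −0.00035). The torin1 shares of all genes were 27.3% higher and 26.4% lower in total mRNA, and 20.3% and 18.2% in polysome-associated mRNA. Arl4c (1.05) and Apoc2 (0.84) rose in both RNA types, Srebf1 (0.38) in total mRNA and Smpdl3a (0.53) in polysome-associated mRNA, values being those of total mRNA for the first 3. Abcg1 rose with torin1 beside Arl4c and Apoc2, and Mylip fell beside Scd1 (−0.72), Scd2 (−0.89) and Fads2 (−0.89).

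**Figure D5:**
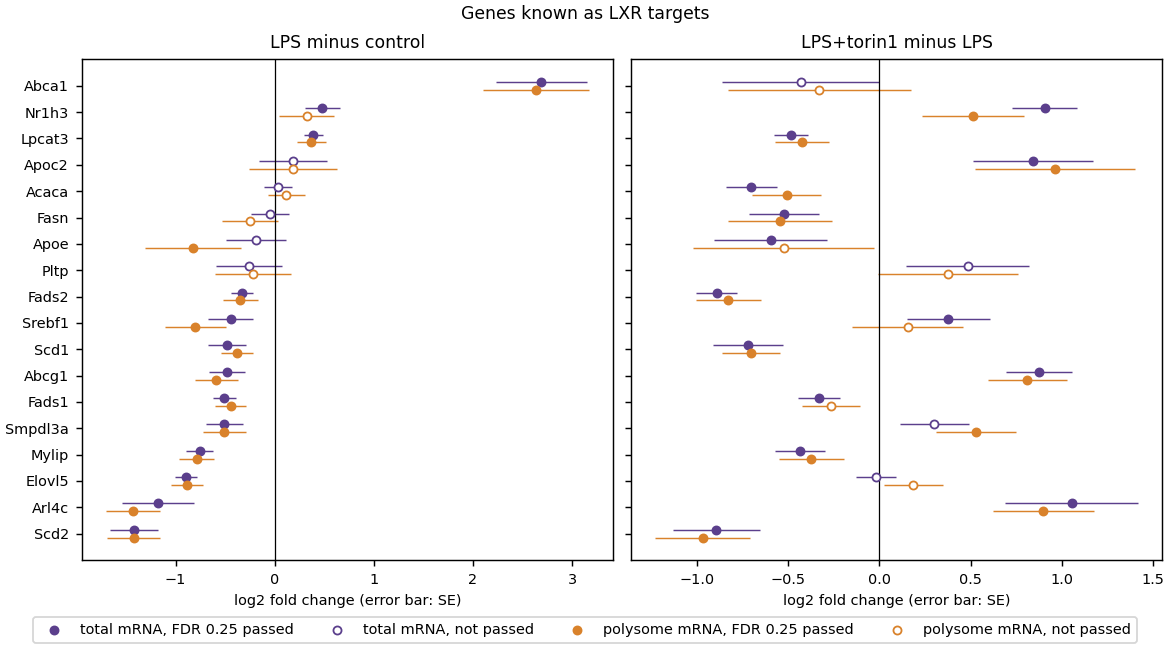
Fitted log2 fold changes with standard errors (x axis) of the 14 measured LXR targets together with Abca1, Abcg1, Mylip and Nr1h3 (y axis, ordered by the LPS change in total mRNA), for LPS against control and LPS+torin1 against LPS, in total (purple) and polysome-associated mRNA (orange), filled where the FDR of 0.25 was passed. Abca1 stands apart at 2.69, and most others lie at or below 0 with LPS.

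Partners and coregulators of LXR and of related lipid-sensing receptors were read against the same shares of all genes. This list also holds receptors such as Ppard themselves. Of 18 measured, 4 rose and 10 fell with LPS in total mRNA (median −0.27, against −0.018 over all genes), and 4 rose and 9 fell in polysome-associated mRNA (median −0.40). Rxra, the retinoid X receptor that pairs with LXR, fell by 1.34 (adjusted p = 0.00525) in polysome-associated mRNA and rose again with torin1, by 1.296 (adjusted p = 0.0162), to stand at −0.045 (adjusted p = 0.919) against control. The coactivators Ppargc1b, at −2.32 (adjusted p = 5.80e-04), and Ncoa2, at −1.22 (adjusted p = 8.01e-05), also fell. The rises were those of the fatty acid receptor Ppard, by 1.75 (adjusted p = 0.00872), the arginine methyltransferase Prmt2, by 1.27 (adjusted p = 0.00228), Ncoa5, by 0.49 (adjusted p = 0.0202), and Tbl1x, by 0.22 (adjusted p = 0.235), and in total mRNA Med1 (0.18) in place of Tbl1x. With torin1, 9 rose and 3 fell in total mRNA (median 0.18), the falls being Tbl1x (−0.24), Hdac3 (−0.24) and Med1 (−0.19), and 8 rose and only Hdac3 fell (−0.29) in polysome-associated mRNA (median 0.21).

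Other scavenger and lipoprotein receptors, read against the same shares of all genes, moved in both directions with LPS. Of 17 measured, 7 rose and 7 fell with LPS in total mRNA (median 0.045, against −0.018 over all genes), and 7 rose and 6 fell in polysome-associated mRNA (median −0.027). Olr1, the lectin-like receptor for oxidized LDL, rose by 3.73 (adjusted p = 0.00242), the Fc receptor Fcgr2b by 3.07 (adjusted p = 2.52e-05) and the mannose receptor Mrc1 by 2.66 (adjusted p = 0.00155) in polysome-associated mRNA. The apolipoprotein E receptor Lrp8 fell by 0.89 (adjusted p = 0.0358) and the endocytic receptor Lrp1 fell by 0.73 (adjusted p = 0.0216). With torin1, 7 rose and 2 fell in total mRNA (median 0.33), the falls being Mrc1 (−2.14) and Lrp8 (−1.17). In polysome-associated mRNA 5 rose, namely Fcgr2b (1.74), Clec7a (1.41), Lgals3 (0.77), Lrp1 (0.73) and Cxcl16 (0.49), and 3 fell, Mrc1 (−1.91), Lrp8 (−1.33) and Cd5l (−0.96), with a median of 0.19.

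Genes of sterol traffic and oxysterol production were read against the same shares of all genes. Of 24 measured, 9 rose and 9 fell with LPS in total mRNA (median −0.089, against −0.018 over all genes), and 7 rose and 8 fell in polysome-associated mRNA (median −0.096). Npc2, which moves cholesterol out of lysosomes, rose by 1.46 (adjusted p = 0.00111), the lipid droplet protein Plin2 by 1.35 (adjusted p = 0.00208) and the late endosomal sterol carrier Stard3 by 1.102 (adjusted p = 0.00617) in polysome-associated mRNA. Cyp27a1, which makes the LXR ligand 27-hydroxycholesterol, fell by 0.97 (adjusted p = 0.00773). With torin1, 11 rose and 5 fell in total mRNA (median 0.17), the falls including Stard4 (−0.37), Hdlbp (−0.36), Sptlc1 (−0.36) and Gramd1b (−0.35). In polysome-associated mRNA 10 rose and 1 fell, with a median of 0.13. Plin2 rose further with torin1, by 0.96 (adjusted p = 0.0478) in total mRNA.

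Genes listed as acting with Lpl or handling its fatty acids, read against the same shares of all genes, moved in both directions. This list also holds the glutamine synthetase Glul, whose known role is neither of these. Of 26 measured, 9 rose and 4 fell with LPS in total mRNA (median 0.16, against −0.018 over all genes), the falls being Angptl4 (−3.65), Cpt1a (−1.33), Glul (−1.01) and Lmf1 (−0.30). In polysome-associated mRNA 7 rose and 3 fell (median 0.097). Angptl4, a secreted inhibitor of LPL, fell by 3.57 (adjusted p = 1.76e-05), the mitochondrial fatty acid gate Cpt1a fell by 1.51 (adjusted p = 8.53e-04) and the glutamine synthetase Glul fell by 1.02 (adjusted p = 0.00309). Hilpda, an inhibitor of lipolysis on lipid droplets, rose by 3.27 (adjusted p = 7.84e-06), the heparan sulfate proteoglycan Sdc4 by 2.72 (adjusted p = 1.02e-05) and the fatty acid binding protein Fabp4 by 2.40 (adjusted p = 0.0396). With torin1, 10 rose and 7 fell in total mRNA (median 0.10), and 7 rose and 5 fell in polysome-associated mRNA (median 0.14), where the falls were Sdc4 (−1.64), Lipe (−0.76), Dgat2 (−0.65), Angptl4 (−0.58) and Abhd5 (−0.26).

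The genes whose log2 levels most resembled each listed gene over the 18 libraries were found by Pearson correlation, which is a description here because libraries of a group share treatment, and those of a lysate share cells. Msr1 had the closest, Vcpip1 (r = 0.991) and Vmp1 (r = 0.984). Next came Scarb1 with 5031439G07Rik (r = 0.987) and Mrps23 (r = 0.985), and Nr1h2 with Gas2l1 (r = 0.980) and Gipc1 (r = 0.980). Mylip was nearest to the LXR target Scd2 (r = 0.970) and to Cytip (r = 0.967), and Abca1 to Rab11fip1 (r = 0.966) and Ptprj (r = 0.955). Lpl was nearest to the cell cycle phosphatase Cdc25a (r = 0.956) and to Ppm1l (r = 0.954), and Abcg1 to Mnt (r = 0.950) and Wash1 (r = 0.931). Nr1h3 was nearest to Spryd3 (r = 0.941) and Ikbkg (r = 0.941), and Cd36 to Stt3a (r = 0.940), a subunit of oligosaccharyltransferase, and Tmem33 (r = 0.924). Among the listed genes themselves, the strongest correlations were 0.81 for Msr1 with Abca1, 0.80 for Mylip with Lpl, −0.87 for Msr1 with Scarb1 and −0.82 for Nr1h3 with Lpl, all over the same 18 libraries. All correlations pool total and polysome libraries, so differences between the RNA types enter them. In control cells these log2 differences, polysome against total, were 1.21 for Scarb1 and −0.73 for Msr1.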

How the data were processed

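The authors sequenced strand-specific, rRNA-depleted libraries in pairs of reads, aligned them with Hisat2 to GRCm38 through the nextflow RNAseq pipeline 1.3, counted them with featureCounts, and deposited raw counts of protein-coding genes, without genes that had a count of 0 in any library. From those counts, edgeR 4.0.16 (R 4.3.3) quasi-likelihood tests with TMM scaling were fitted to the 9 libraries of each RNA type, and to all 18 for translation efficiency and the polysome comparison. These main fits had no term for experiment or lysate. The replicate block added terms for experiment, or for lysate in the fits of all 18 libraries. P-values were adjusted by Benjamini-Hochberg over all 11243 genes, at an FDR of 0.25. The study's analysis of partial variance was rewritten, with the variance moderation of limma 3.58.1, as an alternative. The others were DESeq2 1.42.0, fits of only the treatments compared, another normalization, a count minimum of 10, an FDR of 0.05, each experiment left out, the replicate block and, chosen after seeing the data, a GC correction. The code was tested on simulated data. The listed genes and gene lists were chosen with earlier results of these data known. All listed genes in the table are named. From the other lists, the 3 highest and 3 lowest called genes for LPS in polysome-associated mRNA are named, and every called gene where 5 or fewer were called, except a few genes that are not reported here. Plin2 under torin1 was named after its value had been seen. Exon lengths are from GENCODE M21, merged over all annotated transcripts of a gene, with 10754 symbols matched (95.65%). The study describes total and polysome libraries as matched within 3 experiments. Across treatments, pairing rests on the replicate numbers in the labels. Same-numbered libraries deviated with a mean correlation of 0.356 (lowest 0.147) in total and 0.302 (lowest −0.101) in polysome-associated mRNA. Differently numbered libraries gave means of −0.177 and −0.148 in the same order. Both RNA types come from the same lysates, so a pairing by number applies to both. Some same-numbered polysome libraries nevertheless did not deviate together. Replicates differed beyond sampling noise, with a chi-square per degree of freedom from 26.3 to 252. Total counts ran from 27800983 to 47725557 per library, and the spread between the 3 experiments, beyond sampling noise, limits the precision.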

Additional observations from a re-analysis of the deposited data

How the results depend on the processing

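The number of the 9 genes called stayed within 1.5 times its main value under the alternatives tried, except for LPS+torin1 against LPS in polysome-associated mRNA, where 6 became 2 at an FDR of 0.05 and ranged from 1 to 5 with one experiment left out. Over all genes the calls for this comparison also became fewer at that FDR, with the values given below. The replicate block added the calls given above for Msr1 and Abca1. In polysome-associated mRNA, where some same-numbered libraries did not deviate together, it also added that of Abcg1 for LPS+torin1 against control, at 0.24 (adjusted p = 0.182). It changed no other call of these genes. It turned the uncalled polysome differences of Nr1h2, to −0.20 for LPS and −0.052 for LPS+torin1 against control. Upper-quartile normalization turned that for LPS to −0.11. Cd36 in LPS+torin1 against control turned, in polysome-associated mRNA, to −0.089 with the GC correction and −0.051 with that and the block. The causes were not tested.

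Translation efficiency differences near 0 changed sign freely and none was called. For LPS, Msr1 gave −0.0052 with DESeq2, −0.074 with the GC correction and −0.076 with the block added. Lpl gave −0.070 with the GC correction, −0.034 with the block added and −0.25 by partial variance. For torin1, the GC correction gave Cd36 −0.011, Msr1 −0.017 and Lpl −0.041, and with the block −0.015, −0.016 and −0.043. Partial variance gave Msr1 −0.11, Abcg1 0.14 and Lpl −0.49. Having 3 experiments per group limits the precision of these tests.

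With 1 experiment left out at a time, Nr1h2 ranged with LPS from −0.21 to 0.52 in total and −0.65 to 0.37 in polysome-associated mRNA, with torin1 from −0.052 to 0.33 in polysome-associated mRNA, and against control from −0.70 to 0.70 there. Cd36 in LPS+torin1 against control ranged from −0.23 to 0.012 in total mRNA. In translation efficiency the ranges with LPS were −0.091 to 0.099 for Msr1, −0.13 to 0.040 for Scarb1, −0.12 to 0.065 for Abca1, −0.070 to 0.026 for Mylip and −0.035 to 0.11 for Lpl. With torin1 they were −0.050 to 0.18 for Cd36, −0.033 to 0.23 for Msr1, −0.27 to 0.036 for Scarb1, −0.84 to 0.049 for Nr1h2, −0.039 to 0.092 for Mylip and −0.11 to 0.11 for Lpl. Over all genes, the calls for LPS in polysome-associated mRNA went from 6191 to 3901 without experiment 1 and 3654 at an FDR of 0.05. Those for torin1 against LPS went from 6038 to 3959 without experiment 3 and 3279 at 0.05 in total mRNA, and from 4322 to 1782 and 1187 without experiments 1 and 3, 1557 at 0.05 and 6952 with the GC correction and block in polysome-associated mRNA. Those for LPS+torin1 against control in polysome-associated mRNA went from 6546 to 4156 without experiment 3 and 3950 at 0.05. For the translation efficiency with torin1, 0 became 26 with the GC correction and block.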
